A study of Mus musculus with 64 samples.

Results

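The data described here compare the prefrontal cortex of Tg2576 mice given PF-04447943 with that of Tg2576 mice given vehicle. The 16 arrays whose labels name prefrontal cortex, the transgene and either treatment were taken, 8 from each group, out of 64 in the series. Tg2576 mice carry a human amyloid precursor protein transgene with the Swedish mutation, driven by the hamster prion protein promoter, and the strain is given as B6SJLF1. They are a model of amyloid overproduction in neurons that carry normal tau, and their plaques are known to form later in adult life than the age used here. Both groups were 4 months old, both carried the transgene, and both were infused under the skin for 28 days, so the groups differed in the content of the pump, PF-04447943 or its vehicle. The dose is not given in the sources used here. The series also holds wild-type littermates under both treatments and hippocampus from all 4 kinds of mice, with 8 arrays in every group. Each array measured total RNA of a dissected block on Affymetrix Mouse Genome 430 2.0 probe sets, so that fewer cells of a type and less RNA per cell cannot be told apart.

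PF-04447943 inhibits PDE9A, a phosphodiesterase with high affinity for cyclic GMP that is expressed in neurons of the forebrain. Cyclic GMP is made by soluble guanylyl cyclase in answer to nitric oxide and by receptor cyclases in answer to natriuretic peptides. It acts on cyclic GMP-dependent kinases, on ion channels and on other phosphodiesterases, and in neurons the pathway is known to reach the transcription factor CREB and synaptic plasticity. Blocking PDE9A acts on the enzyme, and the question of the comparison is which transcripts differ after a month of that block.

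No gene of 12932 tested (0%) passed an adjusted p of 0.05 between the treatments in Tg2576 prefrontal cortex (limma, Benjamini-Hochberg over all genes, 8 arrays against 8). The smallest adjusted p was 0.999, and it holds for every gene named below unless another value is given. At an unadjusted p under 0.05 there were 389 genes (3.01%), fewer than the 646.6 that an even spread of p-values would give. Of these, 162 were higher with PF-04447943 (1.25% of the genes tested) and 227 were lower (1.76%). Centring each array on its median left 315 such genes, of which 239 were higher, and quantile normalization gave 471, of which 273 were higher, so the balance of directions followed the scaling. At an unadjusted p under 0.01 there were 64 genes (0.495%).

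The differences were small beside their errors. Over the genes tested, the median absolute difference was 0.048 on the log2 scale against a median standard error of 0.081, and the 95th percentile of absolute differences was 0.17. The 95% interval of the difference lay within 1.2-fold in both directions for 8673 genes (67.1%), within 1.5-fold for 12590 (97.4%) and within 2-fold for 12867 (99.5%). Estimated differences ran from -1.04 for S100a8, a calcium-binding protein of neutrophils, to 0.87 for Tmem87a, a membrane protein of the secretory pathway. The interval of S100a8 ran from -1.94 to -0.15, and the unadjusted p of Tmem87a was 0.216.

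**Figure D1:**
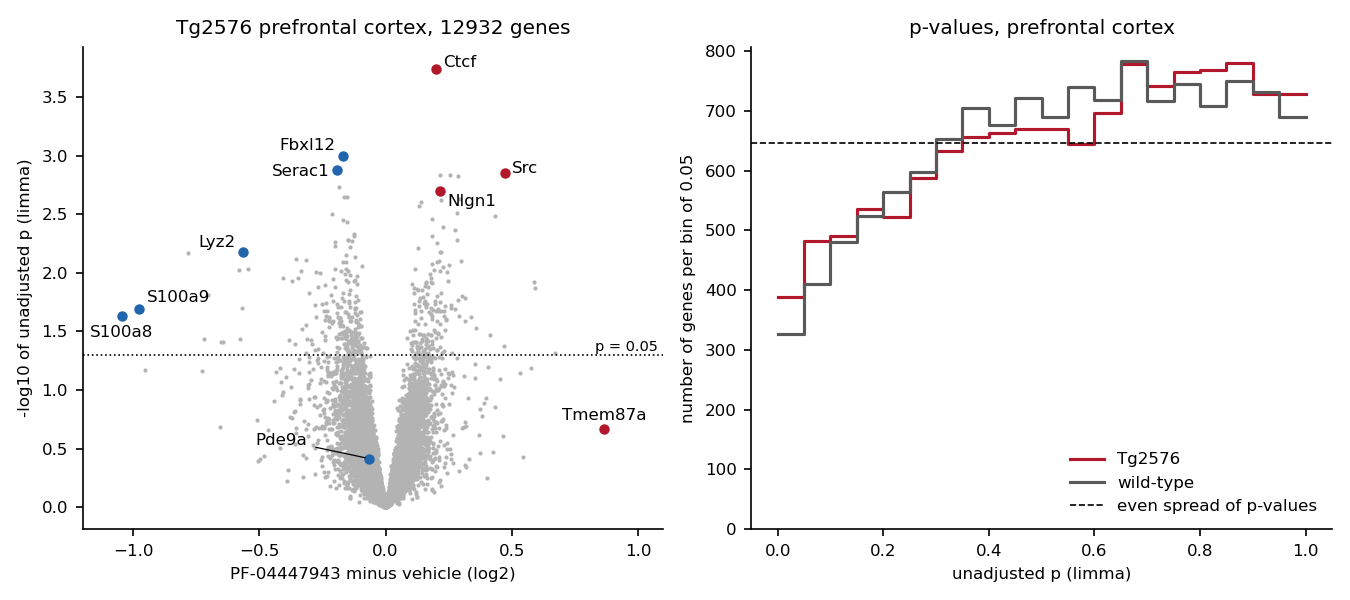
The left panel plots, for each of 12932 genes, the difference PF-04447943 minus vehicle (log2) in Tg2576 prefrontal cortex against minus log10 of its unadjusted limma p; the right panel counts genes per p bin of 0.05 in Tg2576 and wild-type prefrontal cortex. The lowest bin holds 389 genes in Tg2576 and 326 in wild-type, below the dashed line of an even spread at 646.6.

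The tissue was checked against markers in the Tg2576 arrays of both regions. Of 16 genes of cortical excitatory neurons, 2 (Tbr1 and Lamp5) were higher in every prefrontal cortex array than in any hippocampus array, 2 (Neurod2 and Camk2a) were lower in every one, and the others overlapped. Tbr1, a transcription factor of cortical projection neurons, lay between 9.25 and 10.32 on the log2 scale in prefrontal cortex and between 7.43 and 9.07 in hippocampus. Of 13 hippocampal markers, 3 were lower in every prefrontal cortex array, and the others overlapped. Dsp ran from 4.62 to 10.15 in hippocampus and from 4.08 to 4.92 in prefrontal cortex. Tdo2 ran from 4.06 to 7.72 and from 3.78 to 4.84. The lowest hippocampus values of these markers thus lay within the prefrontal cortex range. What this meant for the hippocampus values given below was not tested. The mean level of 13 striatal neuron genes tested here varied widely, from 8.20 to 10.57 among the PF-04447943 arrays and from 8.26 to 10.74 among the vehicle arrays. Drd2, the dopamine receptor of striatal projection neurons, ran from 5.63 to 9.88 and from 5.50 to 9.75 in the same groups. The mean level of these striatal neuron genes thus differed between single arrays far more than between treatments. Whether the amount of striatal tissue differed was not measured. Its part in the results was not tested beyond a fit with that mean level as a covariate, which also gave 0 genes past the threshold. The median intensity of an array lay between 90.9 and 100.69 in the series. The interquartile range of log2 values was 3.67 ± 0.14 (SD, n = 8) with PF-04447943 and 3.69 ± 0.15 with vehicle, which did not differ by an exact two-sided permutation test over 12870 regroupings (p = 0.68).

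Pde9a, the gene of the inhibited enzyme, is the reference point of the study. Its log2 level was lowest at 7.44, median 7.62 and highest 7.72 in the PF-04447943 arrays, and 7.54, 7.67 and 7.85 in the vehicle arrays. The groups overlapped over most of their range. The difference was -0.064 ± 0.072 (SE) with a 95% interval from -0.21 to 0.084, and an exact two-sided permutation test gave p = 0.268 (n = 8 per group). In wild-type prefrontal cortex the difference was -0.077, and the drug by genotype term was 0.013 ± 0.10. Pde9a has 1 probe set under the naming used here. A change in enzyme activity would not be visible in this measurement.

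Of 9 tested genes that make cyclic GMP or lead to its synthesis, 1 was higher and 1 was lower at an unadjusted p under 0.05, against 1.25% and 1.76% of all genes, and the list's median was -0.012 beside -0.013 over all genes tested. Gucy1b1 encodes the beta subunit shared by the soluble guanylyl cyclases. It ran from 12.02 to 12.21 with PF-04447943 (mean 12.10) and from 11.83 to 12.11 with vehicle (mean 11.98), and every PF-04447943 array lay above the vehicle mean although the groups overlapped. The difference was 0.12 ± 0.042, with an unadjusted p of 0.00934 (limma, n = 8 per group). A second Gucy1b1 probe set gave 0.0020, and in wild-type prefrontal cortex the difference of the main probe set was -0.0058. Its partner subunits Gucy1a1 and Gucy1a2 stood at -0.035 and 0.0053, with intervals from -0.26 to 0.19 and from -0.19 to 0.20. Npr2, the receptor cyclase for C-type natriuretic peptide, ran from 8.65 through 8.78 to 8.90 with PF-04447943 and from 8.69 through 8.90 to 9.05 with vehicle. The difference was -0.12 ± 0.056, with an unadjusted p of 0.0344 (limma), and 7 of 8 PF-04447943 arrays lay below the vehicle mean. Leaving out 1 array at a time gave -0.15 to -0.099, and the limma p reached 0.0867 without vehicle replicate 7 in this model across all genes. Nos1, the neuronal nitric oxide synthase, stood at -0.012, and Nos3, the endothelial enzyme, at -0.16 with an interval from -0.37 to 0.038.

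None of 11 tested effectors of cyclic GMP had an unadjusted p under 0.05, where 3.01% of all genes did, and their median was -0.0098. Prkg1 and Prkg2, the cyclic GMP-dependent kinases, stood at -0.044 and -0.11, each with an interval that included 0. Among 16 tested phosphodiesterases none had an unadjusted p under 0.05 either, and the median was -0.019, with 5 above 0 and 11 below. The closest was Pde6g, an inhibitory subunit known from rod photoreceptors, at 0.13 (unadjusted p = 0.0691 in limma). Pde1a, which is stimulated by calmodulin, stood at 0.19 ± 0.11. Pde2a, which cyclic GMP itself activates, stood at -0.012 ± 0.089, and Pde5a at -0.074 ± 0.16. Pde10a, a striatal enzyme, had the widest interval of the list, from -0.79 to 1.23.

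**Figure D2:**
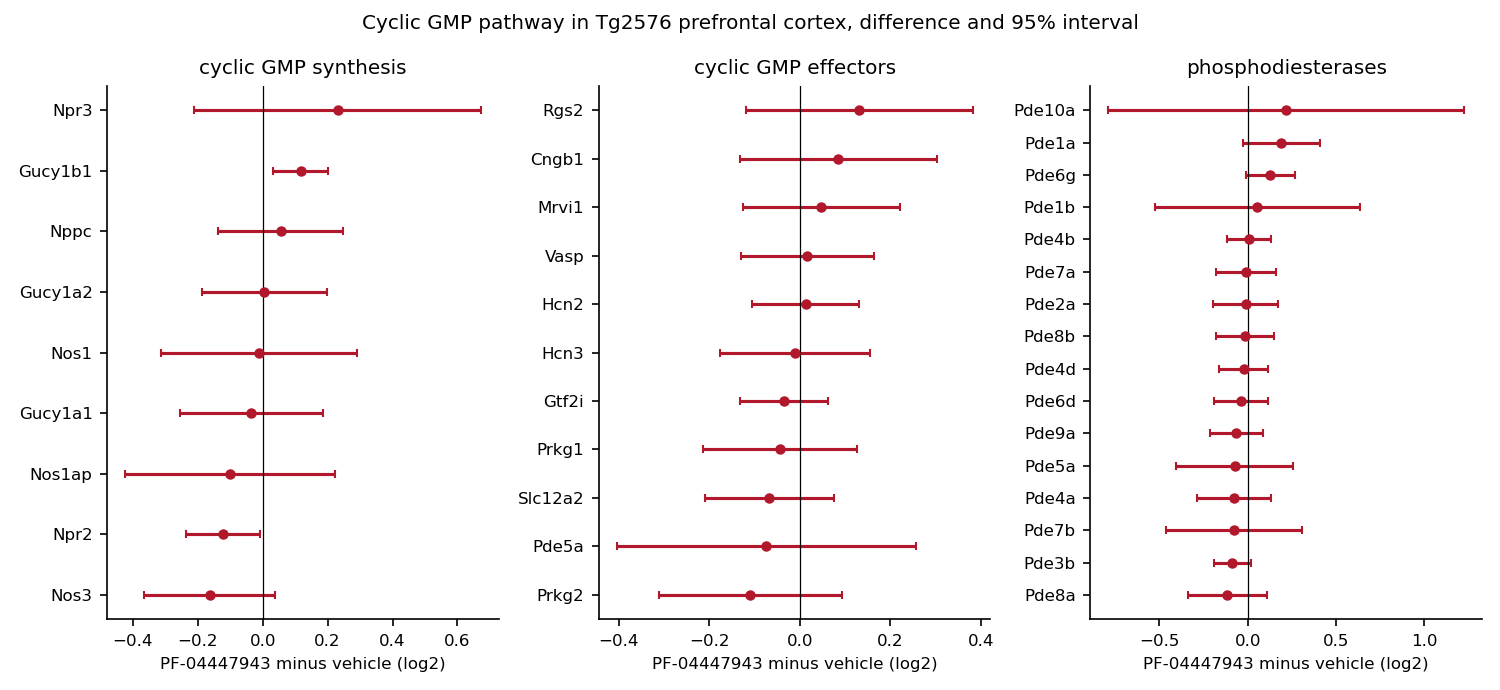
Points show the difference PF-04447943 minus vehicle (log2) in Tg2576 prefrontal cortex for the tested genes of cyclic GMP synthesis (9), cyclic GMP effectors (11) and phosphodiesterases (16), with 95% intervals from limma; the horizontal scale differs between the panels. Only the intervals of Gucy1b1 and Npr2 leave out 0, and the interval of Pde10a is the widest.

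The genes closest to a difference are described next, as the 10 with the smallest p in each direction. Ctcf had the smallest p of all. It encodes CTCF, the zinc-finger protein that binds insulators and holds chromatin loops with cohesin. Its log2 level ran from 9.47 through a median of 9.66 to 9.72 with PF-04447943 and from 9.35 through 9.46 to 9.50 with vehicle. All 8 PF-04447943 arrays lay above the vehicle mean, and only PF-04447943 replicate 8, at 9.47, fell inside the vehicle range. The difference was 0.20 ± 0.047, or 1.15-fold, with an interval from 0.10 to 0.29 and an unadjusted p of 0.000182 (limma, n = 8 per group). In wild-type prefrontal cortex Ctcf differed by 0.19 (unadjusted p = 0.00025 in limma). In Tg2576 hippocampus it differed by 0.19 (limma, unadjusted p = 0.00464, adjusted p = 0.326). Wild-type arrays were 9.52 to 9.71 with PF-04447943 and 9.17 to 9.54 with vehicle. Averaged over the genotypes in prefrontal cortex, a contrast chosen after the data were seen, Ctcf differed by 0.20 with an adjusted p of 0.0191 (limma), as the only gene of 12932 to pass (0.00773%). A second Ctcf probe set of like brightness, with a mean of 9.43, gave -0.0072 in Tg2576 and -0.0097 in wild-type prefrontal cortex. The difference was thus seen by 1 of the gene's 2 probe sets.

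Nlgn1, which encodes neuroligin-1, the postsynaptic partner of neurexins at excitatory synapses, was the only gene of 12932 whose groups did not overlap (0.00773%). With 12870 regroupings of 8 against 8 arrays and this many genes, a gene without overlap can arise by chance. Nlgn1 levels ran from 9.33 through 9.41 to 9.51 with PF-04447943 and from 9.09 through 9.18 to 9.31 with vehicle. The difference was 0.21 ± 0.064, with an interval from 0.085 to 0.34 and an unadjusted p of 0.00203. In wild-type prefrontal cortex the difference was 0.15 (limma, unadjusted p = 0.0225), with overlapping groups and 1 PF-04447943 array, at 8.98, below all vehicle arrays. In Tg2576 hippocampus it was 0.24 (limma, unadjusted p = 0.0113). The gene's other probe set had a mean of 4.34, below the level kept for testing, and gave -0.078.

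Src, a tyrosine kinase that acts on NMDA receptors among many targets, showed the largest difference of the 20. It ran from 8.64 through 9.13 to 9.34 with PF-04447943 and from 8.13 through 8.60 to 8.99 with vehicle. All 8 PF-04447943 arrays lay above the vehicle mean, with overlap between 8.64 and 8.99. The difference was 0.47 ± 0.13, or 1.39-fold, at an unadjusted p of 0.00142, and a second Src probe set gave 0.77 ± 0.20. In wild-type prefrontal cortex the difference was 0.029 with an interval from -0.25 to 0.30, and the drug by genotype term was 0.44 ± 0.19 (unadjusted p = 0.0267). In Tg2576 hippocampus Src differed by 0.51 ± 0.15 and the second probe set by 0.81.

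The other genes among the 10 with higher levels had differences between 0.13 and 0.29. Ankrd49, an ankyrin repeat protein, stood at 0.29 ± 0.089 and Vstm2l, which is secreted by neurons, at 0.25 ± 0.073. The Vstm2l value included PF-04447943 replicate 2, which at 11.48 stood apart from the rest, and was 0.19 without it. Prkag1, a regulatory subunit of AMP-activated kinase, stood at 0.13 ± 0.041, and Nudcd2, a cochaperone, at 0.14 ± 0.043. Slc5a10, a sodium-coupled sugar transporter, stood at 0.22 ± 0.067, Lmntd2 at 0.21 ± 0.061 and 5430405H02Rik at 0.29 ± 0.082. Slc5a10 averaged 6.13 with PF-04447943 and 5.90 with vehicle, near the level kept for testing (5.91).

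The 10 with lower levels had differences between -0.21 and -0.12. Fbxl12, a substrate receptor of an SCF ubiquitin ligase, ran from 7.22 through 7.28 to 7.47 with PF-04447943 and from 7.37 through 7.51 to 7.57 with vehicle. All 8 PF-04447943 arrays lay below the vehicle mean, while 3 of them, including the highest at 7.47, reached into the vehicle range. The difference was -0.17 ± 0.046 (unadjusted p = 0.001 in limma). Serac1, needed for phosphatidylglycerol remodelling and cholesterol trafficking, ran from 8.40 through 8.49 to 8.65 with PF-04447943 and from 8.60 through 8.71 to 8.84 with vehicle, a difference of -0.19 ± 0.054. Its second probe set gave -0.12. Prrt1, an auxiliary protein of AMPA receptors, stood at -0.21 ± 0.066, and Hook3, a dynein adaptor, at -0.15 ± 0.046. A second Prrt1 probe set gave 0.038, and those of Hook3 gave 0.016, 0.068 and -0.026. Pfkfb4, which sets the level of a regulator of glycolysis, stood at -0.19 ± 0.055, and Slc27a1, a fatty acid transporter, at -0.12 ± 0.041. Phc1, a Polycomb subunit, stood at -0.17, Qtrt1, which modifies transfer RNA, at -0.12, and Glt8d1, a glycosyltransferase, at -0.15. Rbm39, a splicing factor, stood at -0.17, and its other probe sets pointed in both directions. Over the 20 genes, 10 had another probe set bright enough to test, and 14 of these 22 probe sets differed in the same direction.

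**Figure D3:**
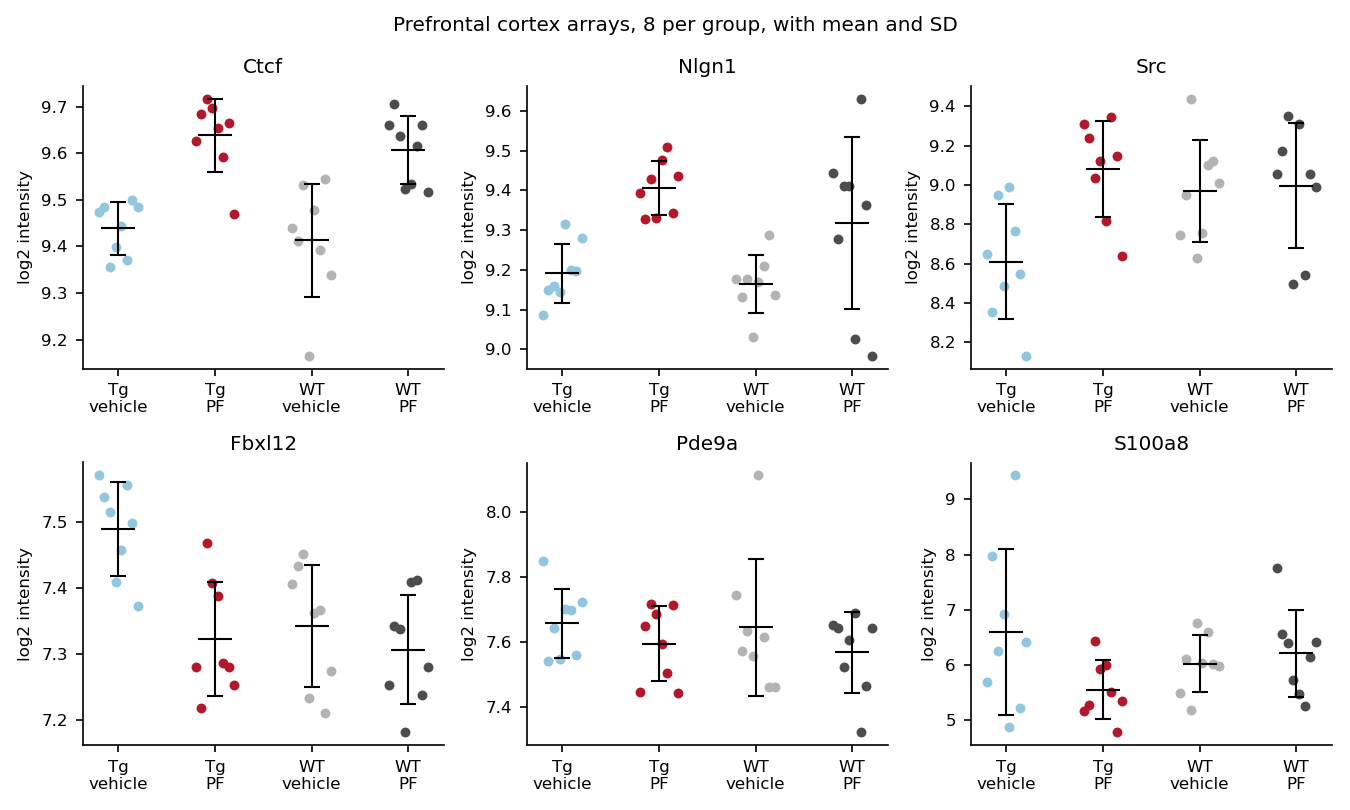
Each point is the log2 intensity of 1 prefrontal cortex array, by genotype (Tg, Tg2576; WT, wild-type) and treatment (PF, PF-04447943), and the bars show mean and SD of 8 arrays. In Tg2576 the Nlgn1 groups do not overlap, Ctcf, Src and Fbxl12 overlap in part, Pde9a overlaps widely, and S100a8 is set apart by vehicle arrays at 9.44 and 7.97.

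Of the same 20 genes, 14 had the same sign in wild-type prefrontal cortex and 3 of them (Ctcf, Nlgn1 and Rbm39) an unadjusted p under 0.05 there, where 2.52% of all genes had one. For 7 of the 20, the drug by genotype term had an unadjusted p under 0.05, beside 3.31% of all genes, but the Tg2576 difference on which the 20 were chosen is part of that term, and none passed after adjustment. In Tg2576 hippocampus 13 had the same sign and 6 an unadjusted p under 0.05 in that direction (Ctcf, Src, Nlgn1, 5430405H02Rik, Ankrd49 and Prrt1), where 11.1% of all genes had one in either direction. None passed adjustment in hippocampus, where 0 of 12966 genes did (limma). The regions may come from the same mice, so the hippocampus values may not be independent of those in prefrontal cortex.

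**Figure D4:**
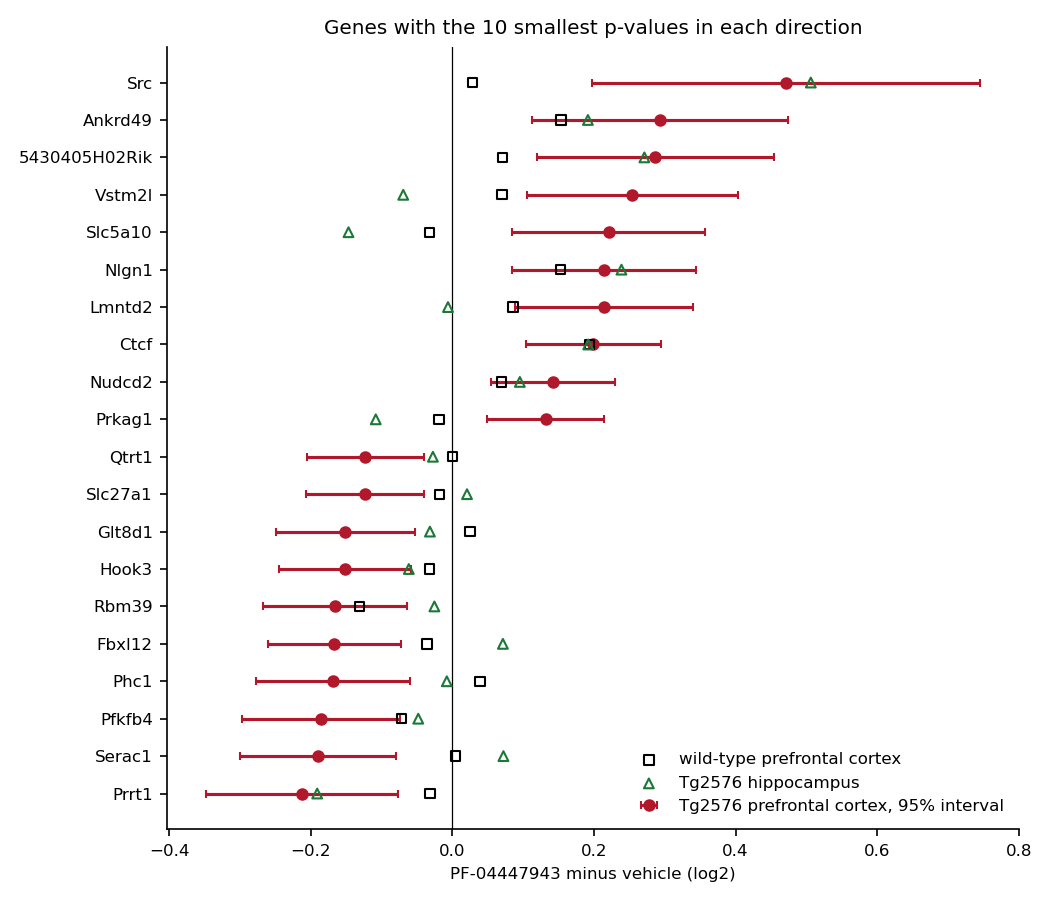
Filled points with 95% intervals give the difference PF-04447943 minus vehicle (log2) in Tg2576 prefrontal cortex for the genes with the 10 smallest p-values in each direction; open squares give wild-type prefrontal cortex and open triangles Tg2576 hippocampus. The 3 symbols lie together for Ctcf near 0.19, and the wild-type value of Src lies at 0.029, apart from 0.47 and 0.51 in the Tg2576 tissues.

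The promoters of 4 genes (Ctcf, Fbxl12, Serac1 and Src) were searched for the CREB site, because CREB is a known end point of the cyclic nucleotide pathways. These genes had the smallest p among the named genes with a promoter entry, 77 of 97. The 2 sequences that held the core of the CREB site are printed. The windows run from 250 bases before to 50 bases after the RefSeq transcription start (build GRCm38.p6), read on the gene's strand, with TGACG or its complement CGTCA in capitals. Ctcf lies at chr8:105636288-105636587 (plus strand) and Serac1 at chr17:6079690-6079989 (minus strand).
Ctcf: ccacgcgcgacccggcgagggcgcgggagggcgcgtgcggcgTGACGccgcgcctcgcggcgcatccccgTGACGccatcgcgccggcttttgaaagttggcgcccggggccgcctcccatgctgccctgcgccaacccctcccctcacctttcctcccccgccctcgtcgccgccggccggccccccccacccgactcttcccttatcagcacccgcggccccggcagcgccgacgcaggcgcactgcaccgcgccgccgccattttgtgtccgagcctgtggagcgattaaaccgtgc
Serac1: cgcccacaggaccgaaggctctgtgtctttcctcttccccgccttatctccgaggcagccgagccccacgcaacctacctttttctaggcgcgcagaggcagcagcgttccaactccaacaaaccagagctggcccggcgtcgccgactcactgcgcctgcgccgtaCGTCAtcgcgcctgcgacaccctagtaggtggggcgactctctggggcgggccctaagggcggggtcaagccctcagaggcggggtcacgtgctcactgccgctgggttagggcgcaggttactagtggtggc
Searched on both strands, the full palindrome TGACGTCA was in neither window, and it was in 588 of 32851 promoter windows of the table (1.79%). The shorter TGACG, which the palindrome contains, was found at 2 positions for Ctcf, starting at -208 and -180 from the transcription start, and at 1 position for Serac1, starting at -83. It was in 6837 of the 32851 windows (20.8%). The windows of Src (chr2:157424043-157424342) and both windows of Fbxl12 held no match. A match describes these letters and is no evidence that a factor bound there.

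Transcripts that answer to neuronal activity and CREB were tested as lists. None of 33 immediate early genes had an unadjusted p under 0.05, with 15 above 0, 18 below and a median of -0.013. Npas4, a transcription factor induced by calcium entry, stood at -0.46 ± 0.37, Fos at -0.23 ± 0.38 and Arc, a synaptic protein, at -0.017 ± 0.33, so their intervals were among the widest. Nptx2, a secreted protein that clusters AMPA receptors, stood at 0.35 ± 0.19 (unadjusted p = 0.0783). PF-04447943 replicate 2 stood at 10.14 and the others at 8.71 or below, and the difference was 0.15 without it. Of 24 genes of CREB signalling 1 was higher at an unadjusted p under 0.05: Prkaca, the catalytic subunit of cyclic AMP-dependent kinase, at 0.12 ± 0.054, where 1.25% of all genes were higher at that p. A second Prkaca probe set gave 0.0098. Creb1 stood at -0.064 and Bdnf, a growth factor made from CREB-bound promoters, at 0.16 with an interval from -0.37 to 0.69. The list's median was 0.012.

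Over all genes tested, 1.25% were higher and 1.76% were lower at an unadjusted p under 0.05. Among receptors, Grik3, a kainate receptor subunit, was the only 1 of 20 AMPA and kainate genes with an unadjusted p under 0.05. It averaged 9.16 with vehicle and 9.44 with PF-04447943, a difference of 0.29 ± 0.11, while in wild-type prefrontal cortex it differed by -0.34. The drug by genotype term of Grik3 was 0.63 (unadjusted p = 0.000454), which did not pass adjustment. A second Grik3 probe set gave 0.044 in Tg2576 and 0.098 in wild-type, so the opposed signs were seen by 1 probe set. Grin2c, an NMDA receptor subunit, was the only 1 of 11 NMDA and metabotropic receptor genes, at -0.14, and Gabrg3, a GABA-A receptor subunit, the only 1 of 11 GABA receptor genes, at -0.24. Of 23 postsynaptic density genes, Nlgn1 was higher and 2 were lower at that level, and 17 of 23 lay below 0 where 7493 of 12932 genes tested did. Dlg4, the gene of the scaffold PSD-95, ran from 10.33 through 10.51 to 10.60 with PF-04447943 and from 10.58 through 10.65 to 10.73 with vehicle. All 8 PF-04447943 arrays lay below the vehicle mean, and the difference was -0.16 ± 0.055 (unadjusted p = 0.00712). Other Dlg4 probe sets gave -0.13 and -0.022. Dlgap3, a scaffold that binds PSD-95, stood at -0.13 ± 0.065. The postsynaptic median stood at -0.057, against 0.043 among wild-type arrays, and no test of that gap was made. Single arrays moved the size of these differences: that of Grik3 ran from 0.22 to 0.37 and that of Gabrg3 from -0.29 to -0.18 when 1 array was left out. None of 25 presynaptic release genes had an unadjusted p under 0.05 (median -0.035).

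No gene around the transgene product passed the adjusted threshold, and some of their differences had wide errors. The App probe set used for the gene stood at 13.91 ± 0.071 with PF-04447943 and 13.87 ± 0.017 with vehicle (SD, n = 8), a difference of 0.035 with an interval from -0.039 to 0.11. The second bright App probe set gave -0.023, and the pair near the bottom of the scale gave 0.0029 and -0.096. These are probe sets of the mouse array, and whether they read the human transgene was not tested. Both Prnp probe sets, named for the mouse prion protein gene, gave 0.027 and 0.019. Whether they also read sequence of the transgene was not tested. None of 26 genes of amyloid precursor processing and clearance had an unadjusted p under 0.05 (median -0.012). Bace1, the beta-secretase, stood at -0.0027 ± 0.089, and Psen2, a catalytic subunit of gamma-secretase, at -0.11 ± 0.070 and 0.15 by its second probe set. Sorl1, a sorting receptor that steers the precursor away from cleavage, stood at -0.21 ± 0.14, and Mme, the amyloid-degrading enzyme neprilysin, at 0.18 ± 0.30. Of 16 tau and tau kinase genes, 1 was lower at an unadjusted p under 0.05, where 1.76% of all genes were. That was Cdk5r2, an activator of the kinase CDK5, at -0.25 ± 0.10 (unadjusted p = 0.0185 in limma). The list's median was -0.022.

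Cell type markers showed the widest departures of list medians. Microglial genes had a median of -0.13, with 13 of 15 below 0, and 1 of 15 was lower at an unadjusted p under 0.05, where 7493 of all 12932 genes lay below 0 and 1.76% were lower at that p. That was C1qa, a subunit of complement C1q, which ran from 9.72 through 10.07 to 10.54 with PF-04447943 and from 9.99 through 10.34 to 10.51 with vehicle. Its difference was -0.24 ± 0.095 (limma, unadjusted p = 0.018) and -0.19 without PF-04447943 replicate 6. The other C1q subunits, C1qb and C1qc, stood at -0.34 and -0.30, with intervals reaching 0.0064 and 0.049, while the other C1qb probe sets gave -0.0074 and -0.095. P2ry12 and Tmem119, receptors and surface proteins of resting microglia, stood at -0.14 and -0.084. In wild-type prefrontal cortex the median of the same list was 0.0046, and the difference between genotypes was not tested for the list.

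Endothelial genes had a median of -0.11, with 10 of 12 below 0 and 3 of 12 lower at an unadjusted p under 0.05, beside 7493 of 12932 below 0 and 1.76% lower at that p over all genes. Among arrays numbered 1 to 4, the list's mean level ran from 8.56 to 8.99 with PF-04447943 and from 8.92 to 9.11 with vehicle. Among those numbered 5 to 8 it ran from 8.62 to 8.86 and from 8.60 to 8.77, so the lower level lay among numbers 1 to 4. Cldn5, the tight junction protein of brain vessels, ran from 9.34 through 9.75 to 9.99 with PF-04447943 and from 9.62 through 9.91 to 10.25 with vehicle, a difference of -0.24 ± 0.090. Kdr, a receptor for vascular endothelial growth factor, stood at -0.27 ± 0.13, and Slco1a4, an organic anion transporter of the barrier, at -0.13 ± 0.063. Oligodendrocyte and myelin genes had a median of -0.095 with none of 13 at an unadjusted p under 0.05, and in wild-type prefrontal cortex their median was -0.16. In Tg2576 their mean level ran from 9.84 to 10.46 with PF-04447943 and from 10.20 to 10.62 with vehicle among arrays numbered 1 to 4. It ran from 9.90 to 10.30 and from 9.75 to 10.22 among those numbered 5 to 8, where it was thus not lower. Medians were -0.014 for astrocyte genes, 0.0085 for excitatory neuron genes of the cortex and 0.031 for inhibitory neuron genes. Gad1, an enzyme of GABA synthesis, was higher by 0.22 ± 0.087 (limma, unadjusted p = 0.0176) and by 0.17 without vehicle replicate 4, and its second probe set gave 0.13. Pericyte, oligodendrocyte precursor, meningeal, choroid plexus, hippocampal and striatal lists had medians between -0.075 and 0.053, with no member at an unadjusted p under 0.05.

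Genes of myeloid blood cells gave the largest differences, and they rested on few arrays. S100a8 passed the filter by its mean over all prefrontal cortex arrays. Most PF-04447943 arrays of Tg2576 lay below the level kept for testing, 5.91. S100a8 stood at 5.16, 5.26, 6.42, 5.93, 5.99, 5.50, 4.78 and 5.34 in the PF-04447943 arrays and at 5.68, 7.97, 6.24, 6.91, 4.87, 9.44, 5.22 and 6.41 in the vehicle arrays. Vehicle replicates 6 and 2 were the highest, and all the other vehicle arrays but replicate 4, at 6.91, overlapped the PF-04447943 arrays widely. The difference of -1.04 (limma, unadjusted p = 0.0236) became -0.64 without vehicle replicate 6 and -0.85 without vehicle replicate 2, each with an unadjusted p over 0.05. S100a9, its partner, differed by -0.97, and by -0.65 and -0.77 without the same arrays. Over the Tg2576 prefrontal cortex arrays S100a9 averaged 6.18 and ran from 4.94 to 8.93, so it too lay near the level kept for testing. Vehicle replicate 6 also had the highest striatal level of the 16 arrays, at 10.74. Lyz2, a lysozyme of myeloid cells and activated microglia, ran from 6.94 through 7.26 to 7.72 with PF-04447943 and from 7.15 through 7.72 to 8.62 with vehicle. Its difference was -0.57 ± 0.19 (unadjusted p = 0.00662), -0.45 without vehicle replicate 6, 0.094 in wild-type prefrontal cortex and -0.59 in Tg2576 hippocampus. Lyz1, a near-identical paralog whose probe sets may share signal with Lyz2, differed by -0.70. Lrg1, a secreted glycoprotein of vessels and neutrophils that was named after its values were seen, ran from 5.35 through 6.07 to 6.47 and from 5.37 through 7.07 to 7.52. Its difference was -0.78 ± 0.27 (unadjusted p = 0.00676), and it was -1.30 among arrays numbered 1 to 4 and -0.26 among those numbered 5 to 8. The red cell gene Alas2 stood at -0.090 and the T cell gene Cd3e at 0.15, and whether blood left in the tissue moved with treatment was not tested further.

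Of 14 genes of microglia near amyloid, Lyz2 was the only 1 with an unadjusted p under 0.05. It was lower, as 1.76% of all genes were at that p. In this list 12 genes lay below 0, beside 7493 of 12932 genes, with a median of -0.056. Trem2, the receptor that such microglia depend on, stood at -0.075 ± 0.095, and Apoe at 0.053 ± 0.069. None of 17 interferon and antigen presentation genes had an unadjusted p under 0.05, with 13 below 0, beside 7493 of 12932 genes, and a median of -0.063; B2m, the light chain of class I molecules, stood at -0.19 ± 0.12. None of 12 inflammatory genes did either (median 0.011).

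**Figure D5:**
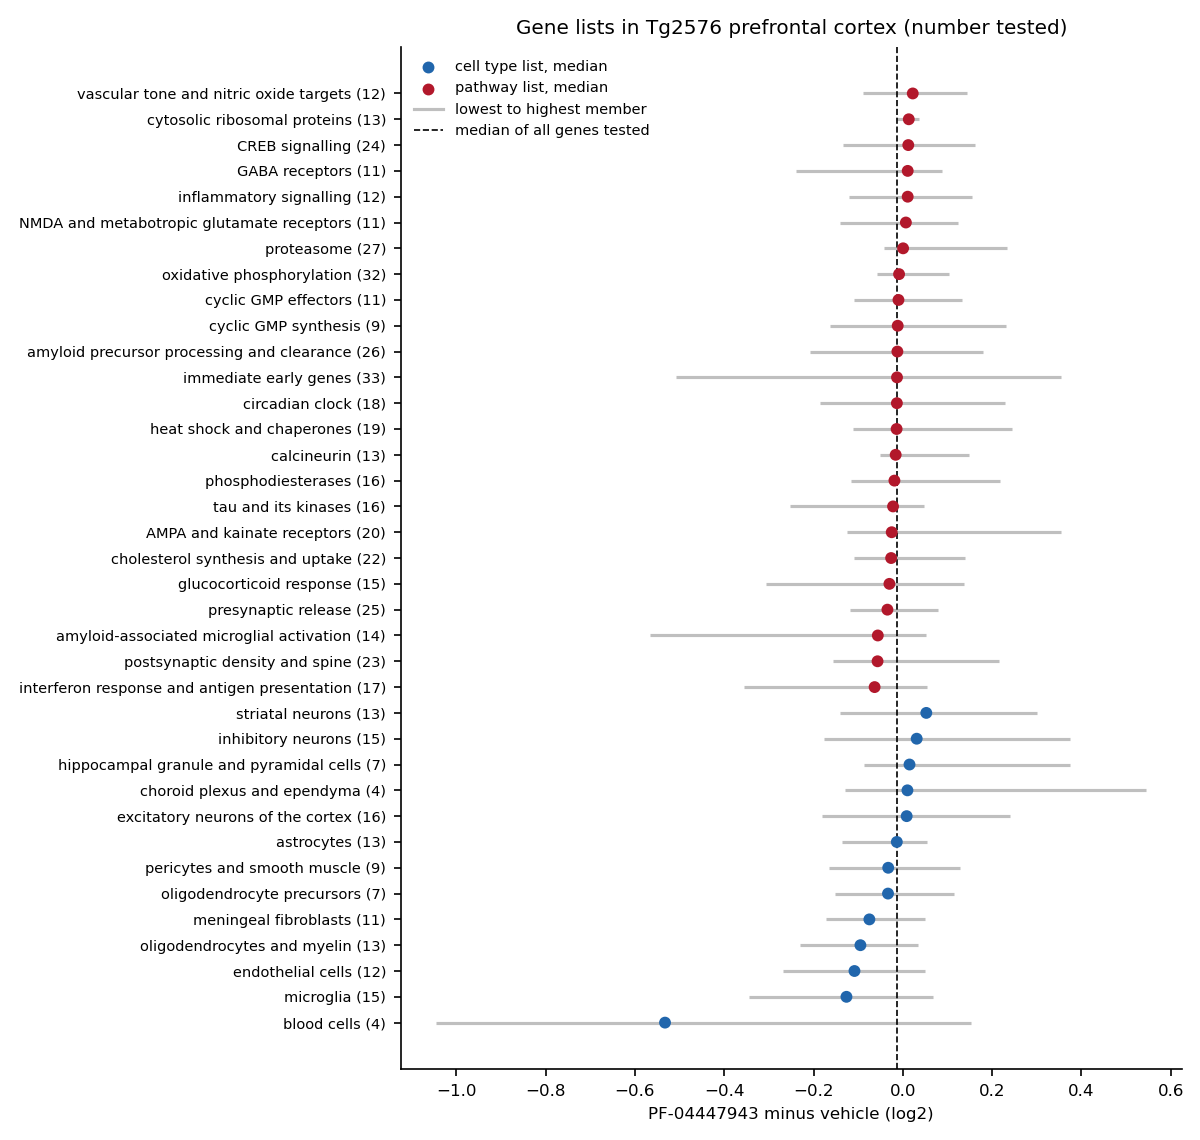
Points give the median difference PF-04447943 minus vehicle (log2) of 37 gene lists in Tg2576 prefrontal cortex, grey lines run from the lowest to the highest member, and the dashed line is the median of all genes tested at -0.013. Medians below -0.09 belong to the blood cell, microglia, endothelial and myelin lists, and the pathway lists lie between -0.063 and 0.022.

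Housekeeping and stress programmes lay near the median of all genes. Medians were 0.013 for 13 ribosomal protein genes, -0.0085 for 32 genes of oxidative phosphorylation, -0.013 for 18 clock genes, -0.014 for 19 chaperones, -0.016 for 13 calcineurin genes, -0.026 for 22 cholesterol genes and 0.022 for 12 genes of vascular tone, none with a member at an unadjusted p under 0.05. Psmc4, a proteasome subunit, was the only 1 of 27 proteasome genes at that level, at 0.23 ± 0.11 (list median 0.00055), and its second probe set gave -0.019. Mt1, a metallothionein induced by glucocorticoids, was the only 1 of 15 glucocorticoid response genes, at -0.15 ± 0.072 (list median -0.030). Over all genes tested, 1.25% were higher and 1.76% were lower at that level.

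The direct test of a genotype difference in drug response gave 0 of 12932 genes past the threshold (limma; smallest adjusted p at least 0.999), with 428 at an unadjusted p under 0.05 (3.31%). The smallest p belonged to Mrpl52, a mitochondrial ribosomal protein, which stood at 0.13 in Tg2576 and -0.18 in wild-type, a difference of 0.32. The other Mrpl52 probe sets bright enough to test gave 0.026 and 0.024 in Tg2576 and 0.013 and -0.00065 in wild-type. Grik3 followed, then Akap13, a kinase anchoring protein, with a term of -0.29, E130317F20Rik with 0.32 and Irf2bpl, a transcriptional regulator, with 0.28. Other probe sets gave -0.011 and -0.17 for Akap13 and 0.052 for Irf2bpl in Tg2576, against -0.050, 0.041 and 0.0070 in wild-type. Wild-type prefrontal cortex alone also had 0 genes past the threshold (limma), with 326 at an unadjusted p under 0.05 (2.52%). Across 12932 genes, which are not independent, the differences in Tg2576 and in wild-type prefrontal cortex had a Pearson correlation of -0.068.

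The direct test between prefrontal cortex and hippocampus of Tg2576 mice likewise gave 0 of 12954 genes past the threshold (limma; smallest adjusted p = 0.808), with 599 at an unadjusted p under 0.05 (4.62%). Hippocampus had 1444 genes at an unadjusted p under 0.05 (11.1%) against 389 (3.01%) here, and that contrast in counts was not itself tested. Lmtk3, a kinase of neurons, had the smallest p between regions. With PF-04447943 against vehicle it averaged 6.65 against 6.40 in prefrontal cortex and 7.07 against 7.41 in hippocampus, so the region term was 0.58 ± 0.14 (limma, unadjusted p = 9.74e-05). Slc5a10, Prkag1, Slc17a2, a phosphate transporter, and Spem1, a spermatid protein, showed the same pattern of a positive value in prefrontal cortex and a negative one in hippocampus, with region terms from 0.24 to 0.52. Group means of Slc5a10, Slc17a2 and Spem1 ran only from 5.82 to 6.47. Some lay below the level kept for testing in prefrontal cortex (5.91), so these signals were near background. Across 12764 genes the differences in the 2 Tg2576 regions had a Pearson correlation of 0.29. The design takes both regions from 8 mice per group, so the points may share animals. The region fit described here held no term for shared animals. With replicate number within genotype and treatment as a random block, 0 genes passed the threshold.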

How the data were processed

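Affymetrix Mouse Genome 430 2.0 arrays measured total RNA of 64 dissected samples, 8 mice per group. The deposited values are linear intensities; per the submitters' processing notes the authors used RMA, with no version named, and whether regions were normalized together is not stated. Values were taken to log2. Of 45101 probe sets, 34945 have 1 gene symbol in the platform annotation, 932 several and 9160 none; 64 are controls. Of the named, 34741 matched a RefSeq gene ID (GRCm38.p6). For each of 18193 genes the brightest probe set (mean of the 64 arrays) was used, and 12932 with a prefrontal cortex mean at or above the 40th percentile (5.91) were tested. Brightness between probe sets does not rank genes.

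The 4 prefrontal cortex groups entered 1 limma fit (limma 3.58.1, R 4.3.3) with lmFit and eBayes, with contrasts for the drug in each genotype and drug by genotype, and all 8 groups entered another for drug by region; p-values were adjusted by Benjamini-Hochberg and the threshold was 0.05. Single measures were tested by exact permutation. The fit was tested on simulated data. Figures used matplotlib. The number of arrays limits precision.

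Named genes were the 10 with the smallest p in each direction, cyclic GMP genes at an unadjusted p under 0.05, Pde9a, all App and Prnp probe sets, genes without overlap, the 2 smallest p of each list and the 5 smallest for each interaction; others were named after their values were seen. The members and the 37 lists (690 genes, of which 562 were tested) were chosen with earlier results of these data known. Genes without a probe set under this naming were not analysed here.

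Alternatives were the probe set rule, filter, centring, quantile normalization, trend, array weights, covariates, blocks and leaving out each array. The main fit did not pair the groups by replicate number. Deviations of same-numbered arrays correlated between -0.51 and 0.30, with 3 of 8 pairs over 0.1. These values cannot exclude shared handling by number, and the labels do not say what the numbers stand for.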

Additional observations from a re-analysis of the deposited data

Results flagged for a closer look

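Within each Tg2576 prefrontal cortex group of 8 arrays, the named genes were searched for an array whose gap to its nearest neighbour was a larger share of the group's range than Dixon's criterion at 95% allows. Of 200 such checks, 12 found an array, where chance gives about 1 in 20, or 10. PF-04447943 replicate 2 held 6 of them. In that array Vstm2l was high at 11.48, Nptx2 at 10.14, Nrxn3, a presynaptic adhesion protein, at 11.69 and the ribosomal gene Rpl19 at 13.17, while Pfkfb4 was low at 7.27 and the clock gene Dbp at 9.71. PF-04447943 replicate 1 had a low Tap2, a peptide transporter for antigen presentation, at 6.58. In vehicle arrays, replicate 1 had a low Kcnj13 at 5.23 and a high Tm7sf2, a cholesterol enzyme, at 9.27; replicate 5 had a low Gabrb1 at 10.27, replicate 6 a high Nfkbia at 11.30, and replicate 8 a low Nrxn3 at 11.14. All values are log2 intensities. No named gene had every PF-04447943 array on one side of the vehicle mean in Tg2576 and on the opposite side in wild-type.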

How the results depend on the processing

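The count of genes past the adjusted threshold stayed at 0 in Tg2576 prefrontal cortex under every alternative run, and so it did for drug by genotype and drug by region. The smallest adjusted p in Tg2576 ranged from 0.114, for Trp53inp2 when a gene's probe sets were averaged, to just under 1. The count at an unadjusted p under 0.05 (389) was less stable: 792 with all probe sets, 1965 with array weights, 257 with a filter at the 60th percentile, 652 with no filter, 609 with arrays numbered 1 to 4 and 5 to 8 as a block, 1127 with numbers 1 to 4 only and 740 with signal range as a covariate, and the cause was not tested. Leaving out 1 array gave 296 to 621, with 613 without PF-04447943 replicate 2 and 621 without vehicle replicate 8. A replicate block gave 572, with 0 past the adjusted threshold; no PF-04447943 array correlated best with the vehicle array of its number. Arrays numbered 1 to 4 had on average a wider signal range than those numbered 5 to 8 (means 3.73 and 3.60 with PF-04447943, 3.82 and 3.57 with vehicle), and the labels give no batch. The 20 genes with the smallest p kept their sign in 295 of 295 values over 15 settings. All settings reused the arrays on which the 20 were chosen, so this agreement is no independent support for them. With probe sets averaged, Ctcf stood at 0.096 and Nlgn1 at 0.068. Of the named genes these changed sign, among them some with sizeable values in the fit described (Ttr 0.55, Mal -0.23, Dbp 0.23, Camk2a 0.18, Ttbk1 -0.17 and Rgs5 -0.16). Averaging probe sets gave App -0.020, Camk2a -0.025, Csf1 0.022, Cxcl1 -0.0042, Psen2 0.021 and Psmc2 -0.0019. Numbers 5 to 8 only gave Csf1 0.018, Dbp -0.049, Edn1 0.037, Fa2h 0.051, Kcnj13 0.0036, Mal 0.037, Nfatc4 -0.00079, Olig1 0.0064, Prnp -0.026, Rgs5 0.12, Rpl19 -0.0030, Tap2 0.014 and Ttbk1 0.025. Numbers 1 to 4 only gave Ttr -0.33, array weights gave Grik4 -0.029, and leaving out 1 array gave Gabrb1 -0.034 (without vehicle replicate 5) to 0.13. The cause of these was not tested.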
